A study of Mus musculus with 16 samples.

Results

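The comparison described here set kidney cells with a Kindlin-2 knockout against kidney cells with the floxed gene, over every autosomal gene with a mean value of at least 1 in the table of these cells. This gave 17735 genes, out of 26653 genes listed in any of the 3 tables of the series. The series as a whole examined how cells respond at the RNA level to mutations in 3 genes, each in a different mouse cell type, with 2 libraries per group. RNA was measured by sequencing of total RNA. The control libraries carry the genotype "Kindlin-2 floxed", a gene flanked by sites for a recombinase, and the other libraries carry the genotype "Kindlin-2 K.O.". Both groups are labelled mouse kidney fibroblasts (MKF), and neither carries a treatment or a time point in the labels. The labels do not say how the floxed gene was removed, whether a group is 1 clone, whether the knockout cells were made from the floxed cells sequenced here, or whether the 2 libraries of a group came from separate cultures. The p-values therefore reflect the scatter of these 4 libraries alone, and that scatter may be technical. Likewise, a consequence of the deletion cannot be told apart from any other difference carried by all cells of a group.

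Kindlin-2, the product of Fermt2, is an adaptor protein that binds the cytoplasmic tails of beta integrins together with talin and helps to switch integrins to their ligand-binding state. It links them to actin through the ILK, PINCH and parvin complex. Integrins are the receptors by which cells hold on to fibronectin, collagens and laminins. In the kidney, epithelial tubule cells rest on a laminin-rich basement membrane, and interstitial fibroblasts make fibrillar collagen between the tubules.

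The values are normalised read counts in whole numbers. They summed to between 15565648 and 16324223 per library, with an estimated value of 1 read from 0.93 to 1.063, so that each library rests on roughly 14980000 to 17160000 counted reads. Mitochondrial ribosomal RNA took 16.4% and 17.0% of the summed values in the floxed and 16.1% and 14.0% in the knockout libraries. Over the 10668 genes with a mean of at least 50, Pearson's r of the log2 values across genes was 0.996 between the floxed libraries and 0.994 between the knockout libraries. It was 0.819 between the 2 group means, and genes are not independent replicates. Fold changes are on the scale of log2(value + 1), knockout minus floxed, with a standard error (SE), and a gene is called changed at an adjusted p below 0.05 in limma.

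The targeted gene was checked first. Fermt2 (ENSMUSG00000037712, chr14:45458795-45530118, minus strand, GRCm38) stood at 3078 and 3142 in the floxed libraries and at 1251 and 1240 in the knockout libraries. The knockout mean of 1246 ± 7.78 (SD, n = 2) was 40% of the floxed mean of 3110 ± 45.3 (SD, n = 2), a log2 fold change of -1.32 ± 0.04 with an adjusted p of 6.14e-05. A gene value covers all exons, so RNA from exons outside the removed part still counts. Exons were not counted apart, and the source of the remaining RNA was not tested. The paralog Fermt1, the kindlin of epithelial cells, was at 0 in both floxed libraries and at 282 and 248 in the knockout libraries, at least 86.0-fold higher against a floor of 3 reads per library. Fermt3, the kindlin of blood cells, had values of 20 and 10 against 16 and 15. Among the talins, Tln2 fell (700 and 692 against 405 and 437), and Tln1 stood at 7276 and 7156 against 7559 and 8020 with an adjusted p of 0.0880. Tln2 was not called without either floxed library.

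Across the genome, 8686 of the 17735 genes were called, or 49.0%. Of these, 4399 (24.8%) rose in the knockout libraries and 4287 (24.2%) fell. Each list below, apart from those named next, is read against a background of about 1 call in each direction per 4 genes. Among the 9155 genes with a mean of at least 100, 65.6% were called: 32.7% rose and 32.9% fell. The lists of mitosis, replication, ribosome production and ribosomal proteins hold only such genes and are to be read against these shares. Of the called genes, 417 differed at least 16-fold. The groups did not overlap for 73.2% of all genes. There were 75 genes with a mean of 50 or more in the knockout and 2 or less in the floxed libraries, and 65 with the opposite pattern. The median log2 fold change over all genes was 0.03. The number of calls rests on the number of libraries: without floxed library 1 it was 2038, without floxed library 2 it was 2060, without knockout library 1 it was 3694 and without knockout library 2 it was 3533, where the lone library of a group is assumed to vary like the other group.

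The cell type label was checked against markers before the gene groups were read. Col1a1, the main chain of fibrillar collagen in fibroblasts, had values of 49 and 64 in the floxed and 10 and 8 in the knockout libraries. As parts per 1000000 of the summed values this was 3.08 and 3.92 in the floxed libraries and 0.627 and 0.514 in the knockout libraries, against 704 and 608 in the series' 2 wild-type libraries of mouse embryonic fibroblasts. Those tables were normalised separately, so only the size of this gap is of use. Pax8, a transcription factor of the kidney tubule epithelium, stood at 128 and 130 of such parts in the floxed and 140 and 143 in the knockout libraries, and at 0.837 and 0.783 in the embryonic fibroblasts. Of the 18 fibroblast markers listed, 7 are not among the 18288 genes given for these cells. They are Col3a1, Dcn, Lum, Thy1, Fap, S100a4 and Dpt. Postn, a matricellular protein of fibroblasts, went the other way in the floxed libraries, at 19.5 and 22.4 of such parts against 31.2 and 32.8 in the embryonic fibroblasts, and was at 0.0627 and 0 in the knockout libraries. Fn1 and Vim, also on the fibroblast list, were high in all 4 libraries. The markers were thus mixed in the floxed libraries, with Pax8 and Col1a1 against the label in both groups, and the libraries are called floxed and knockout below without a cell type. Col1a1 lost its call with each of the 4 libraries left out in turn.

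The kidney epithelial regulators Pax8 and Pax2 were present in all 4 libraries. Pax8 had values of 2044 and 2126 in the floxed and 2238 and 2219 in the knockout libraries (adjusted p = 0.108). Pax2, its close relative, rose slightly, from 564 and 556 to 708 and 730. Cdh16, the kidney-specific cadherin, rose from 1510 and 1571 to 3160 and 3005. In all, 5 of the 13 tested kidney tubule and collecting duct markers rose and 5 fell (2 to 3 and 3 with 1 library left out). Among those that fell, Lrp2, the endocytic receptor megalin of the proximal tubule, went from 3500 and 3310 to 734 and 769. Hnf4a, a proximal tubule transcription factor, was at 37 and 38 in the floxed and at 0 in both knockout libraries, at least 13-fold lower. Lhx1, a transcription factor of the forming nephron, went from 84 and 99 to 1 in each knockout library. Aqp1 and Gata3 were the other members called lower. Aqp1 and Gata3 lost their calls with each of the 4 libraries left out in turn, and Pax2 with each floxed library left out.

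Genes that define epithelial cells had the highest median fold change of the 63 gene lists examined. Of the 17 epithelial markers tested, 13 rose (between 9 and 13 with any 1 library left out) and none fell, although 1 was called lower in at least 1 of those smaller sets. Their median log2 fold change was 5.59, against 0.03 over all genes. The summed value of the list was 2724 and 2942 in the floxed libraries and 29817 and 30734 in the knockout libraries. In bulk libraries, fewer cells of a type and less RNA per cell cannot be told apart, so these values do not say whether all cells or some cells carry the difference.

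**Figure D1:**
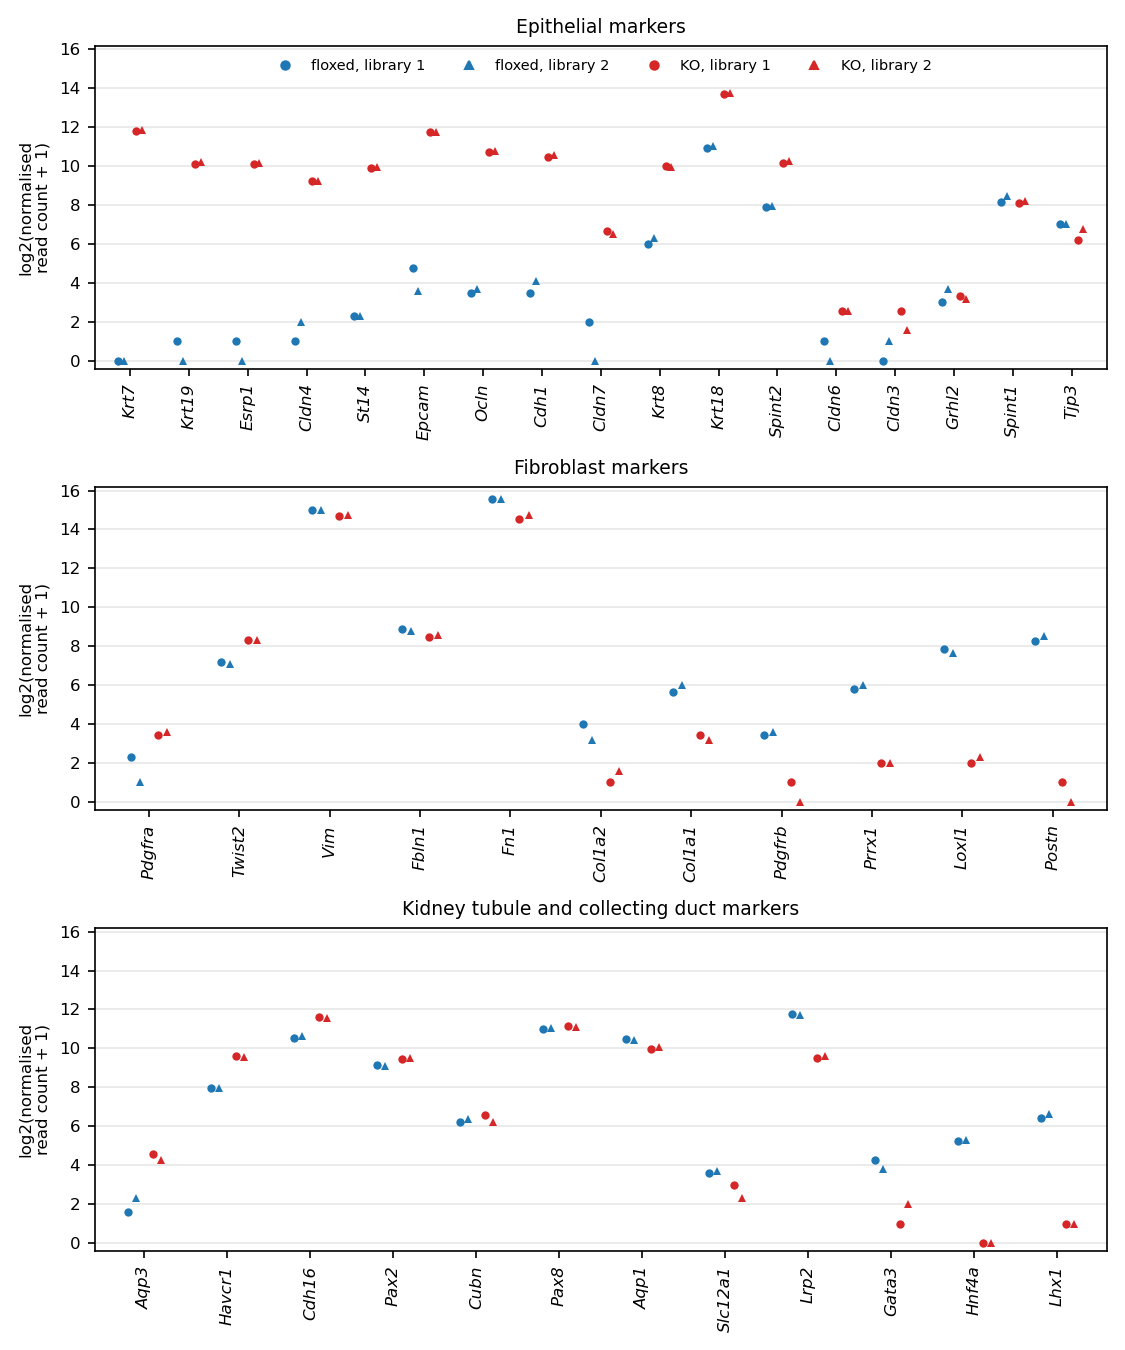
Each point is the log2(normalised read count + 1) of 1 library for the epithelial, fibroblast and kidney tubule markers, ordered within a panel by fold change. Blue points are the 2 floxed and red points the 2 knockout libraries. Krt7 sits at 0 in both floxed libraries and above 3500 in both knockout libraries, Postn falls from above 300 to at most 1, and Pax8 did not pass the test.

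The keratins Krt7, Krt19, Krt8 and Krt18, which form the intermediate filaments of simple epithelia, all rose. Krt7 went from 0 in both floxed libraries to 3532 and 3659, at least 1167-fold higher. Krt19 stood at 1 and 0 against 1092 and 1169, Krt8 at 64 and 78 against 1024 and 1001, and Krt18 at 1945 and 2082 against 13347 and 13765. Keratin genes have close copies, and the handling of multi-mapped reads is not given in the sources used here. Of the adhesion and junction genes, Cdh1, the cadherin of epithelial adherens junctions, rose from 10 and 16 to 1399 and 1531 (log2 fold change 6.74 ± 0.22, adjusted p = 8.41e-05). Epcam, an epithelial surface adhesion protein, went from 26 and 11 to 3430 and 3401. Ocln, a tight junction membrane protein, went from 10 and 12 to 1704 and 1732. The claudins Cldn4 (1 and 3 against 595 and 598) and Cldn7 (3 and 0 against 100 and 91) followed the same direction. In each of these genes both knockout libraries lay far above both floxed libraries, but the genes were named with such values known. Cldn4, Cldn7 and Epcam were not called without either knockout library.

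The same direction was seen in Esrp1, a splicing regulator of epithelial cells, with 1 and 0 in the floxed and 1114 and 1132 in the knockout libraries. The membrane protease St14 rose from 4 in each floxed library to 975 and 1003, and Spint2, an inhibitor of such proteases, from 236 and 245 to 1139 and 1231. Tjp3 (128 and 128 against 74 and 107), Spint1 (287 and 350 against 273 and 299), Grhl2 (7 and 12 against 9 and 8) and Cldn3 (0 and 1 against 5 and 2) did not pass the test. Grhl2 is a transcription factor of epithelial identity, and its values overlapped between the groups.

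Repressors of the epithelial state fell. The zinc finger factors Snai2, Zeb1 and Zeb2 bind CACCTG boxes in promoters of epithelial genes and hold them down. Snai2 went from 217 and 227 to 3 and 4 (log2 fold change -5.64 ± 0.20, adjusted p = 0.000106). Zeb1 fell from 1601 and 1658 to 412 and 396, and Zeb2 from 1723 and 1812 to 304 and 283. Twist1 and Prrx1, mesenchymal transcription factors, fell to at most 3 from 67 and 54 and from 54 and 64. Twist2 went the other way, from 147 and 134 to 320 and 321. The factors Grhl1 (10 and 3 against 205 and 216) and Ovol1 (2 and 1 against 46 and 43), which act in epithelia, rose, and so did the splicing regulator Esrp2 (77 and 67 against 319 and 335). Cdh2, the mesenchymal cadherin that kidney tubule cells also make, stood at 9410 and 9257 against 9193 and 9561 (adjusted p = 0.897), and was called lower, by -0.26 on the log2 scale, only after the shift by chromosome described below. Of the 18 regulators of epithelial and mesenchymal state tested, 7 rose and 8 fell, with 3 to 5 and 4 to 6 in sets with 1 library left out. Grhl1 and Ovol1 were not called without either knockout library, nor Twist1 without either floxed library.

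Because these repressors act at the CACCTG box, the 250 bases before the gene start were searched for it on both strands. RefSeq promoter windows (GRCm38.p6) were matched by symbol to 12 of the 17 epithelial markers, with 15 windows. The box stood in 11 of the 15 windows (73.3%), belonging to 10 genes, and in 17.2% of all 32851 windows of that length. The list was made of epithelial genes, so a raised share of the box may come with that choice. A match is a description of the sequence and does not show a site in use. Whether the fall of these repressors bears on the rise of the markers was not tested. The stretches below are shown for genes that rose from near 0 or from a low level, on the strand of the gene, with the box or its reverse complement in capitals. They lie at chr15:101412322-101412401 (plus strand) for Krt7, chr15:102004411-102004490 (minus) for Krt8, chr5:134946935-134947014 (minus) for Cldn4 and chr17:87635755-87635834 (plus) for Epcam.
Krt7: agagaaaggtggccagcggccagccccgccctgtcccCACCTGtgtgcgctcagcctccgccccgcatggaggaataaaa
Krt8: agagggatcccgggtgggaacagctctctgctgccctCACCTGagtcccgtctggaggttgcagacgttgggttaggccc
Cldn4: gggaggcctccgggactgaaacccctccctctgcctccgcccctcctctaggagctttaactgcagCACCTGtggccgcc
Epcam: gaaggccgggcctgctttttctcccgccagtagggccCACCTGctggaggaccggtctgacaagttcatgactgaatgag
The uncalled Tjp3 also has the box, in 2 windows. AACCNGTT, a motif of the Grhl factors, was in 0 of the 15 windows and in 1.79% of all windows, and TGACTCA, the AP-1 motif, was in 1 of the 15 and in 4.46% of all. With shares this low, 15 windows are too few to tell these counts from the shares over all windows.

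Fibroblast markers moved the opposite way. Of the 11 tested, 9 fell and 2 rose, and with 1 library left out 2 to 5 were still called lower. The median log2 fold change was -2.29, which is the value of Col1a2 (15 and 8 against 1 and 2), a gene of a few reads. Only 6 of the 11 had a mean of at least 100. Postn fell from 311 and 366 to 1 and 0. Loxl1, which crosslinks elastin, fell from 230 and 198 to 3 and 4. Fn1, fibronectin, and Vim, the mesenchymal intermediate filament, changed less. Fn1 fell from 48688 and 48905 to 24125 and 27850, and Vim from 32542 and 33173 to 26693 and 27629. Pdgfra was called higher at 4 and 1 against 10 and 11, values near the level of a few reads. Postn and Fn1 were not called without either floxed library, Vim with any 1 library left out or under quantile normalisation, or Pdgfra without floxed library 2 or either knockout library.

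Markers of other cells were low or mixed. Of the kidney stromal markers, 5 of 12 rose and 6 fell (2 to 5 and 2 to 3 with 1 library left out). Tbx18, a transcription factor of the stroma around ureter and vessels, was at 278 and 286 in the floxed and at 0 in both knockout libraries, at least 97.6-fold lower, while Foxd1, the factor of the renal stroma, rose from 100 and 83 to 215 and 228. Of 8 smooth muscle and myofibroblast markers, 1 rose and 2 fell (0 to 1 and 0 to 1 with 1 library left out). Smtn, a smoothelin that binds actin, rose from 1960 and 1982 to 4169 and 4718 and makes up most of the list's summed value of 2053 and 2095 against 4208 and 4752. Acta2 (43 and 42 against 4 and 3) and Tagln (13 and 18 against 1 and 2) fell. Of the macrophage and blood cell markers, 4 of 6 were called higher. Csf1r, the receptor of a macrophage growth factor, stood at 124 and 131 against 177 and 199, and Ptprc, the surface marker of blood cells, at 3 and 4 against 16 and 12. None of these 4 was called with any 1 library left out. The 6 tested markers summed to 293 and 323 in the floxed and 480 and 500 in the knockout libraries. Adgre1, Itgam, Laptm5, Tyrobp, Cd52 and Lyz2 are not among the genes given for these cells. Of the 4 tested endothelial markers only Flt1 was called, and Pecam1, a defining one, had values of 0 and 1 against 7 and 2. Those 4 summed to 717 and 634 against 1484 and 1652. Of the 4 tested mesothelial markers 3 rose and 1 fell, and Upk3b, Lrrn4 and Upk1b are not among the genes given for these cells. Msln rose from 492 and 480 to 1000 and 912, and Krt19, also an epithelial marker, rose as given above. Wt1 fell from 5 in each floxed library to 0 and 1, values of a few reads. The part of such cells in the results above was not tested. Acta2, Smtn and Msln lost their calls without either floxed library, Tagln and Flt1 with each of the 4 libraries left out in turn, and Foxd1 without floxed library 2 or either knockout library.

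Integrins and the matrix they bind changed in both directions. Of the 20 integrin subunits tested, 8 rose (40%) and 8 fell (40%), with 5 to 7 and 1 to 3 in sets with 1 library left out. The rising subunits include those that pair into laminin receptors. Itgb4, which with Itga6 forms the hemidesmosome receptor, rose from 21 and 26 to 1961 and 2148 (log2 fold change 6.40 ± 0.12, adjusted p = 4.10e-05). Itga6 rose from 778 and 781 to 3626 and 3774. Itga3, which pairs with the beta 1 chain to bind laminin, rose from 2448 and 2366 to 10390 and 11279. Itgb6, an epithelial subunit, rose from 45 and 33 to 185 and 199. Subunits of fibronectin and collagen receptors were among those that fell: Itga5 went from 882 and 810 to 224 and 196, and Itga1 from 1933 and 2003 to 601 and 581. Itgb1, the beta 1 chain shared by most of these receptors, stood at 23000 and 23299 against 19714 and 19216, a fall of 0.25 on the log2 scale. Itgb6 was not called without either knockout library, Itga5 without floxed library 1, and Itgb1 with any 1 library left out.

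Laminin chains of epithelial basement membranes, where these receptors attach, rose. Lama3 went from 10 and 11 to 856 and 948 and Lamb3 from 46 and 41 to 721 and 737. Lama1, the chain of the early nephron basement membrane, fell from 767 and 747 to 19 and 14. Nid1 and Nid2, the nidogens that tie laminin to collagen IV, moved apart: Nid1 rose from 1 in each floxed library to 197 and 181, and Nid2 fell from 120 and 132 to 14 in each knockout library. Of the 19 basement membrane genes tested, 7 rose and 9 fell (6 and 4 to 7 with 1 library left out).

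Collagen genes fell more often than they rose, with 13 lower and 6 higher of 27 tested (8 to 9 and 2 to 3 with any 1 library left out). Col4a1 and Col4a2, the ubiquitous chains of basement membrane collagen, share a promoter region. Col4a1 went from 1267 and 1209 to 31 and 20 and Col4a2 from 933 and 808 to 5 and 7. Col4a3 and Col4a4, the chains of mature glomerular membrane, rose, from 284 and 325 to 528 and 490 and from 377 and 370 to 759 and 773. Col6a1 and Col6a2, which build beaded microfibrils, fell from 4898 and 4862 to 136 and 139 and from 891 and 879 to 25 and 23. Col5a3 fell from 1085 and 1105 to 6 and 13. Col4a1 and Col5a3 were not called without either floxed library, nor Col4a3 with any 1 library left out.

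The enzymes that process collagen also fell, 14 of 22 tested, with 5 higher and a median log2 fold change of -0.86. The count of falling members was 6 to 7 with any 1 library left out. Loxl2, a crosslinking oxidase, fell from 3860 and 3985 to 120 and 122, and Serpinh1, the collagen chaperone, from 4136 and 4441 to 188 and 145. Fkbp10, a prolyl isomerase that acts on procollagen, fell from 445 and 409 to 6 and 19. Among the proteases, Mmp2, which cleaves collagen IV, fell from 823 and 817 to 1 and 0, and Plau, the urokinase that activates plasminogen, rose from 163 and 126 to 1816 and 1943. Mmp2 and Fkbp10 lost their calls without either floxed library.

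**Figure D2:**
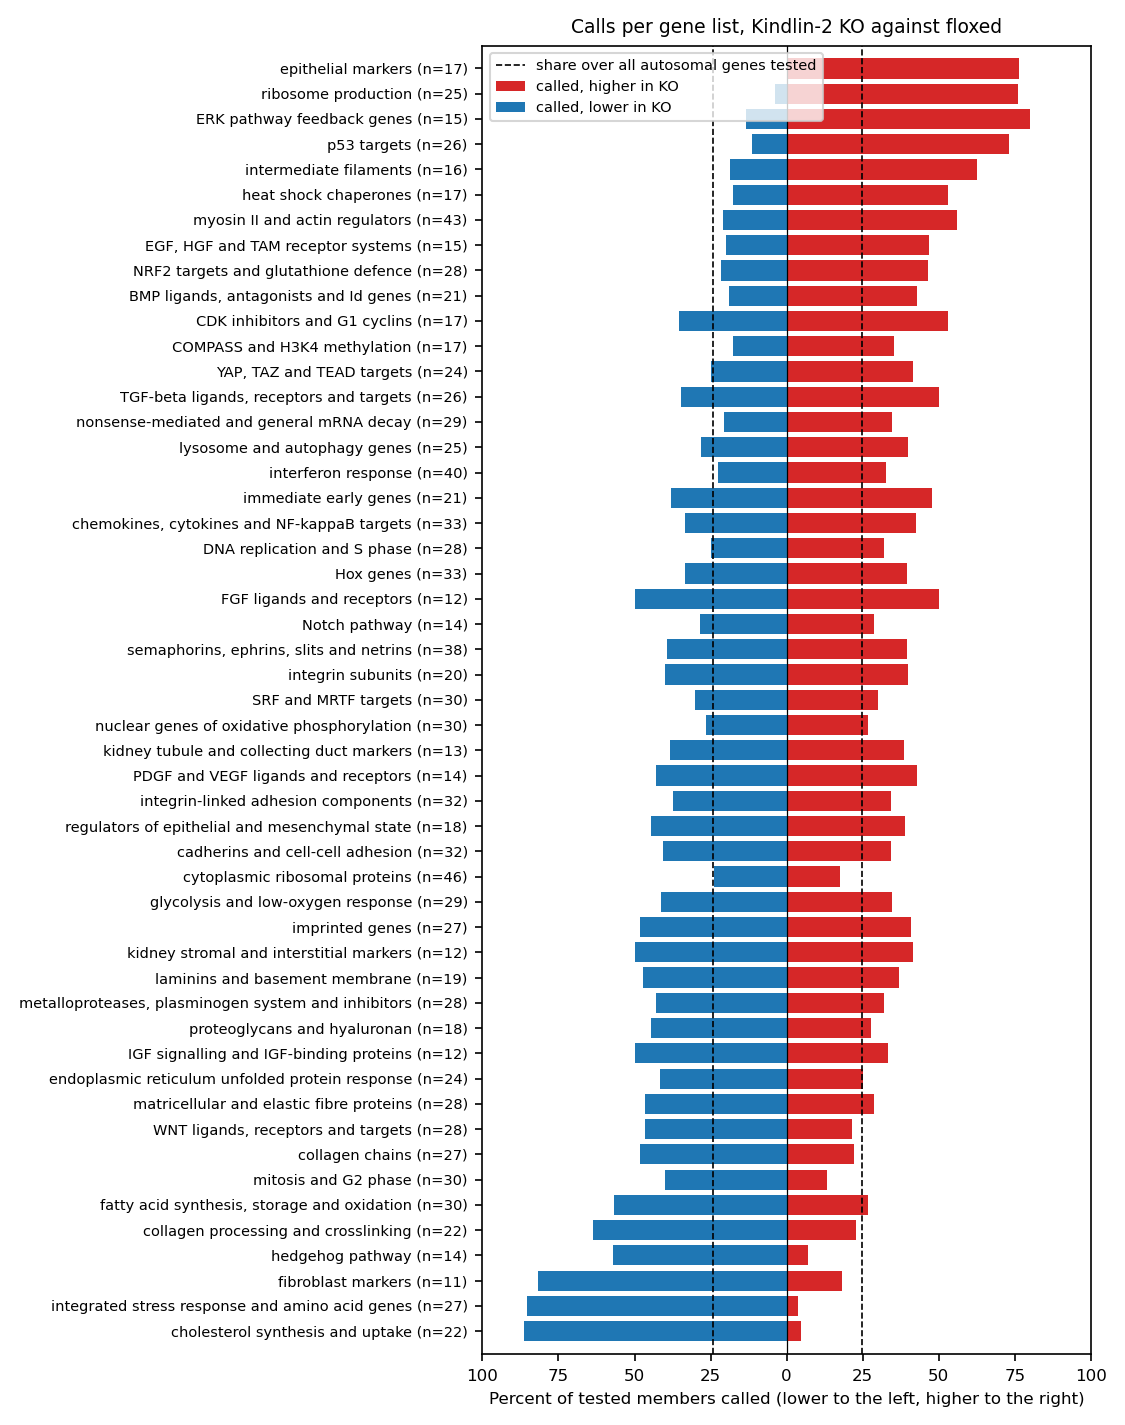
Bars give, for each gene list with at least 10 tested members, the percent of members called higher (red, to the right) and lower (blue, to the left) in the knockout libraries. The dashed lines mark the shares over all autosomal genes tested, 24.8% and 24.2%. Epithelial markers, ribosome production, ERK feedback genes and p53 targets lie at the top, and fibroblast markers, integrated stress response genes and cholesterol genes at the bottom.

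Actin and adhesion genes gave a mixed picture beside the change in identity genes. Of 43 regulators of myosin II and actin, 24 rose and 9 fell, with 6 to 10 and 1 to 4 in sets with 1 library left out. Scin, an actin-severing protein, rose from 28 and 33 to 1149 and 1158, and Myh14, a non-muscle myosin heavy chain of epithelia, from 1 and 3 to 188 and 202. Myh9, the most widely made non-muscle myosin, fell from 42979 and 44929 to 31255 and 33097, and Tpm1, a tropomyosin, from 20535 and 22152 to 8247 and 8465. Of the 32 integrin-linked adhesion components, 11 rose and 12 fell (4 to 8 and 4 to 9 with 1 library left out). Layn, a hyaluronan receptor, was at 91 and 80 in the floxed and at 0 in both knockout libraries, at least 29.6-fold lower. Tns1, a tensin that binds integrin tails, fell from 4628 and 4823 to 849 and 892, and Parvb, a parvin of the ILK complex, fell from 506 and 520 to 126 and 134. Targets of SRF and its cofactor MRTF split evenly, 9 higher and 9 lower of 30 (1 to 6 and 2 to 5 with 1 library left out), and targets of YAP and TAZ split 10 to 6 of 24 (8 to 10 and 2 to 4). Ctgf, a YAP target, rose from 1063 and 1074 to 3330 and 3350. Myh14 was not called without either knockout library, nor Myh9 with any 1 library left out.

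Growth factor signalling genes showed a higher share of rises in ERK feedback. These genes are switched on by the ERK kinase and most of them dampen it. Of 15 tested, 12 rose (80%) and 2 fell, with 6 to 8 rising in sets with 1 library left out. The median log2 fold change was 1.05. Spry4, a sprouty inhibitor, rose from 95 and 78 to 696 and 701 (log2 fold change 3.01 ± 0.11, adjusted p = 0.000112). Dusp4, a phosphatase of ERK, rose from 157 and 179 to 628 and 605, and Ccnd1, cyclin D1, from 779 and 801 to 4345 and 4503. Spred3 and Il17rd fell, from 99 and 101 to 42 and 44 and from 406 and 462 to 285 and 292. In all 15 genes, called or not, the groups did not overlap, against 73.2% of all genes tested. A gap of this kind largely comes with a call, so it adds no support to the 12 rises. Spred3 lost its call without either floxed library, and Il17rd without floxed library 2, without either knockout library and after the shift by chromosome described below.

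Ligands of the EGF receptor rose as well. Areg went from 35 and 32 to 532 and 554, Ereg from 68 and 65 to 554 and 557, and Tgfa from 49 and 60 to 412 and 427. Hbegf rose from 884 and 852 to 1819 and 1835 and Btc from 24 and 37 to 155 and 120. Egfr, the receptor itself, fell from 3866 and 3735 to 2805 and 2903, and Errfi1, its feedback inhibitor, from 1790 and 1697 to 856 and 800. FGF ligands parted: Fgf9 rose from 0 in both floxed libraries to 74 and 62, at least 22.1-fold, and Fgf1 from 28 and 38 to 262 and 253. Fgf7, a ligand that mesenchyme supplies to epithelia, fell from 343 and 355 to 67 and 63. Btc and Egfr were not called with any 1 library left out, Fgf1 without either knockout library, or Errfi1 without floxed library 1.

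Developmental signals fell more often than they rose in the WNT and hedgehog lists. Of 28 WNT genes, 13 fell and 6 rose, and with any 1 library left out 4 to 7 fell and 3 to 5 rose. Dkk3, a secreted protein of the Dickkopf family, fell from 1371 and 1393 to 3 and 1, Wnt10b, a WNT ligand, from 211 and 202 to 1 in each knockout library, and Lef1, a nuclear effector, from 251 and 249 to 7 and 6. Wnt5a, a ligand of the non-canonical branch, rose from 55 and 47 to 226 and 230. Of 14 hedgehog genes, 8 fell and 1 rose (4 to 5 and 0 to 1 with 1 library left out). Evc and Evc2, partner proteins at the base of the cilium, fell from 1166 and 1199 to 328 and 395 and from 1358 and 1333 to 433 and 464, while Ptch1, a direct target and receptor, stood at 492 and 483 against 452 and 451 (adjusted p = 0.150). Dkk3 and Evc were not called without either floxed library.

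In the Notch list, 4 of 14 genes rose and 4 fell (3 to 4 and 1 with 1 library left out). Dll1, a Notch ligand, went from 0 in both floxed libraries to 187 and 218, at least 65.7-fold higher. Among the BMP genes 9 of 21 rose and 4 fell (2 to 7 and 0 to 1 with 1 library left out). The Id genes, targets of BMP signals that block helix-loop-helix factors, all rose: Id1 from 85 and 92 to 680 and 560, Id2 from 306 and 312 to 1238 and 1130, Id3 from 143 and 136 to 269 and 340, and Id4 from 1 in each floxed library to 30 and 39. Of the TGF-beta genes, Tgfb2, a ligand, fell from 227 and 211 to 18 and 19, and Fst, the activin-binding protein follistatin, rose from 26 and 28 to 683 and 645. Id1, Id3 and Id4 lost their calls without either floxed library.

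The guidance molecules split evenly, with 15 higher and 15 lower of 38 (8 to 11 and 5 to 11 with 1 library left out). Sema3c, a secreted semaphorin, had the largest gain in value of this list, from 1462 and 1424 to 17778 and 16975. Epha4, an ephrin receptor, rose from 80 and 81 to 2041 and 2114. Robo2, a receptor of Slit proteins, was at 426 and 386 in the floxed and at 0 in both knockout libraries, at least 141-fold lower, and Robo1 stood at 672 and 576 against 0 and 2. Robo1 was not called without either floxed library.

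Genes of the integrated stress response fell as a group. In this response, kinases that sense amino acid shortage and other stress raise the translation of the factor ATF4, which turns on amino acid transport and synthesis. Of the 27 tested autosomal genes, 23 fell (85.2%) and 1 rose, and 16 to 22 fell in sets with 1 library left out. The median log2 fold change was -1.66. The summed value of the list was 60696 and 61426 in the floxed and 24055 and 24316 in the knockout libraries. Atf4 itself fell less than most of the list, from 6275 and 6551 to 3889 and 3824.

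The largest fall of the list was that of Aldh1l2, a mitochondrial folate enzyme, from 7014 and 7008 to 140 and 153 (log2 fold change -5.57 ± 0.06, adjusted p = 1.84e-05). Cth, which makes cysteine, fell from 1031 and 1057 to 104 and 108, and Slc7a11, which imports cystine, from 1139 and 1080 to 168 and 148. Pck2, a mitochondrial enzyme of phosphoenolpyruvate synthesis, fell from 2369 and 2371 to 414 and 463. Asns, asparagine synthetase, fell from 5434 and 5642 to 1499 and 1433, and Chac1, which degrades glutathione, from 763 and 779 to 155 and 179. Serine and one-carbon genes followed: Shmt2 fell from 5507 and 5566 to 1646 and 1816 and Mthfd2 from 4092 and 4271 to 1452 and 1506. Phgdh, the first enzyme of serine synthesis, stood at 2397 and 2588 against 2732 and 2545 (adjusted p = 0.308), and Cebpb, a partner of ATF4, rose from 534 and 531 to 714 and 745. Cebpb lost its call without either floxed library and Chac1 without floxed library 2.

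**Figure D3:**
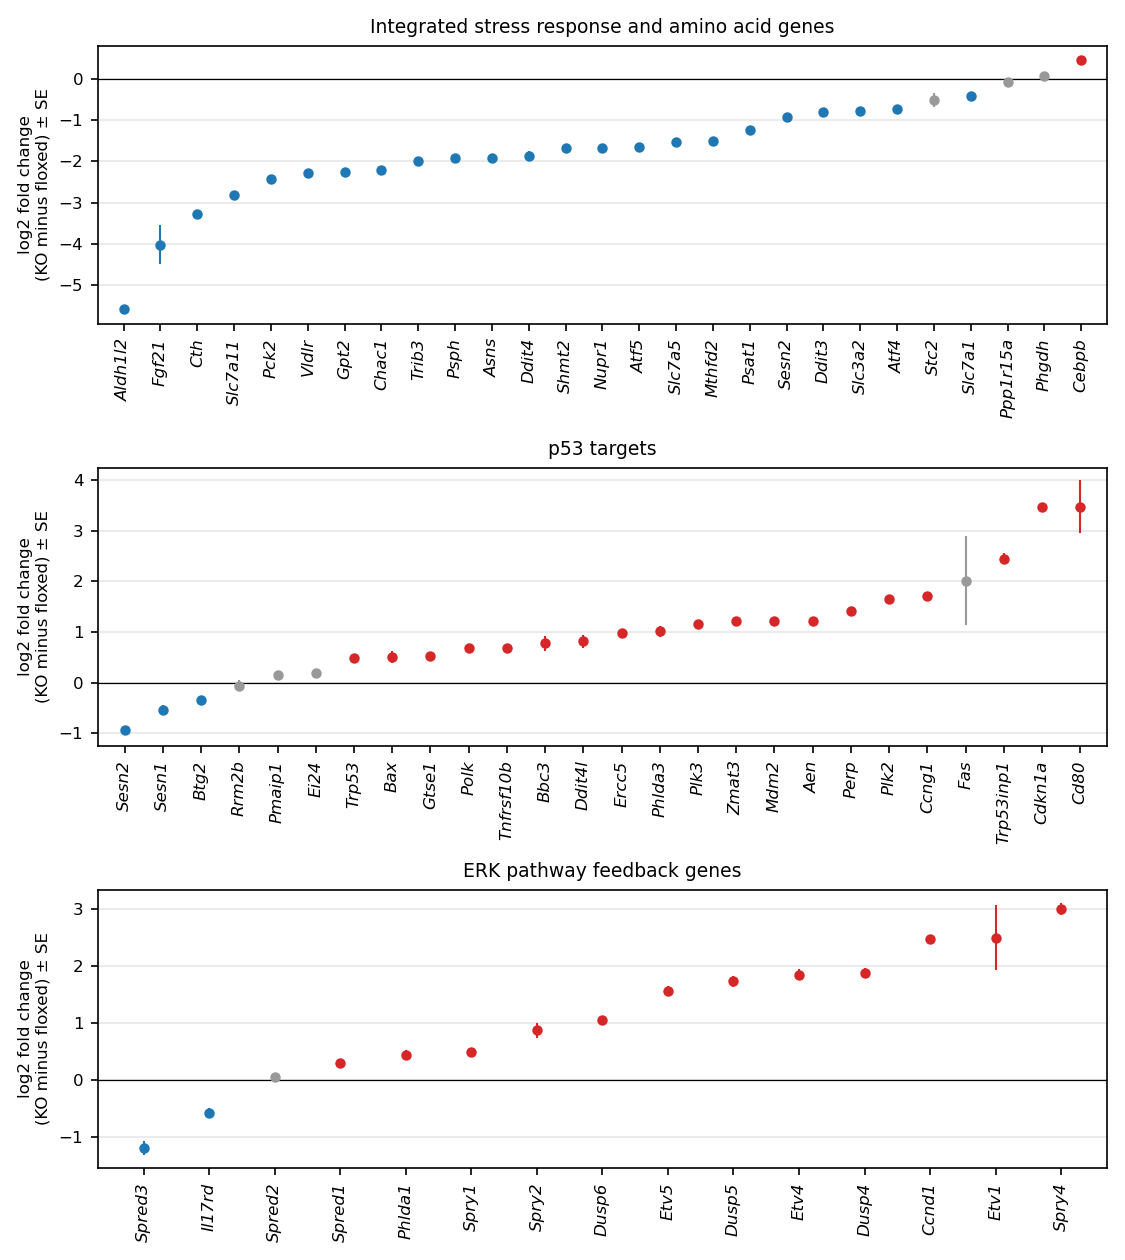
Points give the log2 fold change (knockout minus floxed) with its SE for each tested autosomal member of 3 gene lists, with red for called higher, blue for called lower and grey for not called. In the upper panel 23 of 27 points are blue, in the middle panel 19 of 26 are red, and in the lower panel 12 of 15 are red.

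The ATF4 and C/EBP composite element reads TGATGNAA, and the same promoter windows were searched for it on both strands. RefSeq windows were matched to 24 of the 27 genes, with 28 windows, and 7 of them held the element (25%), against 3.45% of all 32851 windows. The 7 genes are Asns, Chac1, Fgf21, Nupr1, Pck2, Slc7a11 and Vldlr. All fell, as did 23 of the 27 genes of the list with or without the element. The list was made of genes of this response, so a raised share of the element may come with that choice. A match does not show a site in use. Stretches of 80 bases are shown for 4 of them, on the strand of the gene and with the element, or its reverse complement, in capitals. They lie at chr2:119351013-119351092 (plus strand) for Chac1, chr3:50443636-50443715 (minus) for Slc7a11, chr14:55540127-55540206 (plus) for Pck2 and chr19:27216784-27216863 (plus) for Vldlr.
Chac1: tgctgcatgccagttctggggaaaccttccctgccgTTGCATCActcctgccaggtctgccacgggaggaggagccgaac
Slc7a11: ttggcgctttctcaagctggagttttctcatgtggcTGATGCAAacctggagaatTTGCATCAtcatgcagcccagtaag
Pck2: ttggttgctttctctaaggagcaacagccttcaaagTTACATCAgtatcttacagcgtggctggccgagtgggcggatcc
Vldlr: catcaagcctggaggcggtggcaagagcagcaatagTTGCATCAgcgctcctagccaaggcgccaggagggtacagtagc
Slc7a11 holds 2 copies in its window. Most members of the list have no copy in these 250 bases, which says nothing of sites elsewhere.

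In the unfolded protein response of the endoplasmic reticulum, another stress pathway, 6 of 24 genes rose and 10 fell, with a median log2 fold change of -0.07, and 2 to 4 rose and 1 to 4 fell with 1 library left out. Herpud1, a factor of protein degradation at that membrane, fell from 620 and 658 to 205 and 184, and Pdia6, a disulfide isomerase, rose from 1625 and 1713 to 3348 and 3208. Herpud1 lost its call without floxed library 2.

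Lipid synthesis genes fell by smaller steps. Of 22 genes of cholesterol synthesis and uptake, 19 fell (86.4%) and 1 rose, with a median log2 fold change of -0.50 and 3 to 10 falling in sets with 1 library left out. Lss, which closes the sterol ring, fell from 969 and 942 to 536 and 526, and Fdft1, squalene synthase, from 3270 and 3290 to 1988 and 1942. Srebf2, the transcription factor that drives the pathway, fell from 5461 and 5482 to 3613 and 3962. Srebf2 was not called without either floxed library. Lss, Fdft1 and Srebf2 lie on chromosomes 10, 14 and 15. Over genes with a mean of at least 50, the median log2 fold change there was -0.38, -0.32 and -0.30. The part of these chromosome medians in the falls of the cholesterol list was not tested. Of 30 fatty acid genes, 17 fell and 8 rose (10 to 13 and 2 to 3 with 1 library left out). The desaturases Scd1 and Scd2 fell from 9219 and 9413 to 1783 and 1834 and from 14074 and 14058 to 3580 and 3530.

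Targets of p53, the factor that halts the cell cycle after damage, numbered 26 in the test, of which 19 rose (73.1%) and 3 fell, and 10 rose in each set with 1 library left out. The median log2 fold change was 0.89. Cdkn1a, the cell cycle inhibitor p21, rose from 65 and 67 to 755 and 723 (log2 fold change 3.47 ± 0.07, adjusted p = 4.76e-05). Mdm2, which degrades p53, rose from 2007 and 1985 to 4669 and 4625. Ccng1 rose from 1340 and 1348 to 4534 and 4323, Trp53inp1 from 235 and 207 to 1305 and 1120, and Plk2, a kinase of the list, from 4090 and 4252 to 13028 and 13309. Trp53 itself rose from 1124 and 1215 to 1616 and 1662. Sesn2, which the integrated stress response also controls, fell from 495 and 507 to 252 and 273. Sesn2 was not called without either floxed library, nor Trp53 with any 1 library left out.

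Cell cycle genes changed less. Of 30 genes of mitosis and G2 phase, 12 fell and 4 rose, with a median log2 fold change of -0.12, but only 2 to 4 fell and 0 to 1 rose with 1 library left out. Ccnb2, a mitotic cyclin, fell from 1131 and 1168 to 513 and 508. Of 28 replication genes, 9 rose and 7 fell (3 to 4 and 1 to 3 with 1 library left out). The D cyclins parted, since Ccnd2 fell from 354 and 358 to 9 and 4 while Ccnd1 rose as given above. Ccnd2 was not called without either floxed library.

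Genes of ribosome production rose in 19 of 25 cases (76.0%) and 1 fell, with a median log2 fold change of 0.40 and 7 to 9 rising in sets with 1 library left out. Ncl, nucleolin, had the largest gain in value of all called genes, from 38121 and 42061 to 68640 and 66266. Gnl3, a nucleolar GTPase, rose from 1478 and 1575 to 3771 and 3580. Of 46 cytoplasmic ribosomal proteins, 8 rose (17.4%) and 11 fell (23.9%), with 1 to 3 and 1 to 3 when 1 library was left out. All 46 had a mean of at least 100, and among all genes of that level 32.7% rose and 32.9% fell. Rplp0 fell from 17625 and 17733 to 9016 and 8180. The elongation factors Eef2 and Eef1a1 fell from 40176 and 40765 to 27021 and 27806 and from 42674 and 43538 to 30197 and 29678. Rplp0, Eef1a1 and other translation genes have many processed copies, so their values are less certain. Rplp0 lost its call without either floxed library, Eef2 without floxed library 2 and Ncl without either knockout library.

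Defence and metabolism lists had calls in both directions. Of 40 interferon genes, 13 rose and 9 fell (7 to 8 and 2 to 5 with 1 library left out). Oasl1, an antiviral protein, went from 2 and 1 to 254 and 272 and Ifit1 from 4 and 12 to 226 and 183, and both belong to families with close copies. Of 33 chemokine, cytokine and NF-kappaB genes, 14 rose and 11 fell (7 to 10 and 2 to 4). Lcn2, a protein released by injured tubule cells, went from 0 in both floxed libraries to 82 and 77, at least 25.8-fold higher, and Vcam1, a leukocyte adhesion molecule, fell from 692 and 727 to 43 and 42. In the NRF2 and glutathione list, 13 of 28 rose and 6 fell (5 to 9 and 2 to 3). Nqo1, a quinone reductase, went from 4 and 8 to 304 and 318, and Gsta4, a glutathione transferase, from 191 and 200 to 0 in both knockout libraries, at least 67.7-fold lower. Of 30 nuclear genes of oxidative phosphorylation 8 rose and 8 fell, but 0 rose and 0 to 3 fell with 1 library left out. Of 29 genes of nonsense-mediated and general mRNA decay 10 rose and 6 fell, and 1 to 4 rose and 1 to 4 fell in those smaller sets. Ifit1 and Nqo1 were not called without either knockout library.

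Hox genes, which carry positional identity, differed by cluster. The division by cluster was made after the values were seen. All 7 tested Hoxd genes rose, and the list summed to 1 in each floxed library against 1622 and 1679 in the knockout libraries. Hoxd10 was at 0 in both floxed and at 542 and 640 in the knockout libraries (at least 192-fold higher), Hoxd9 at 0 against 209 and 206, and Hoxd8 at 1 in each floxed library against 753 and 719. Of the 8 Hoxc genes, 6 fell and none rose: Hoxc10 went from 1189 and 1182 to 399 and 412 and Hoxc9 from 407 and 430 to 209 and 211. The Hoxa genes (2 higher and 4 lower of 9) and Hoxb genes (4 higher and 1 lower of 9) moved less, with Hoxb9 at 2059 and 2130 against 2570 and 2492. With any 1 library left out, 6 to 7 Hoxd genes and 2 to 4 Hoxc genes were still called, and the Hoxa calls were lost, with 0 to 2 of the 4 higher Hoxb calls left. Genes of a Hox cluster lie close together with antisense transcripts between them, and the use of read strand in counting is not given. Hoxb9 was not called with any 1 library left out.

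**Figure D4:**
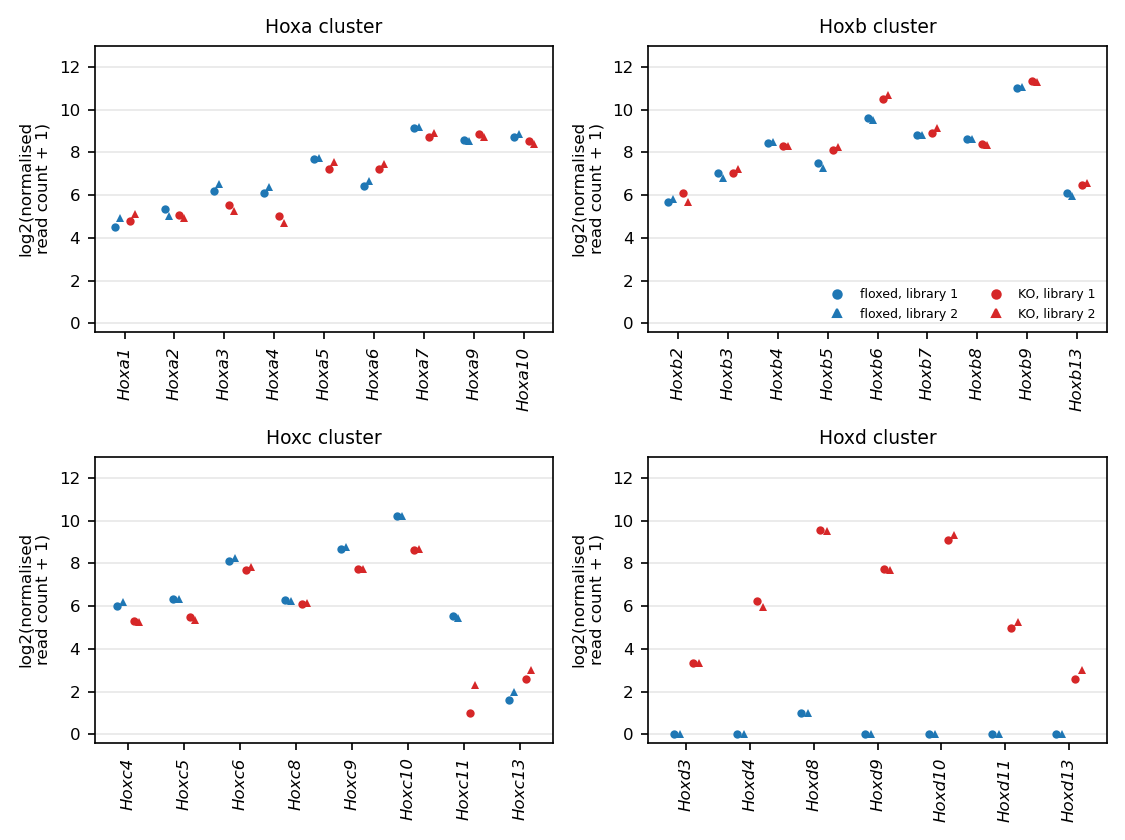
Each point is the log2(normalised read count + 1) of 1 library for the tested genes of the 4 Hox clusters. The Hoxd genes sit at 0 or 1 in both floxed libraries (blue) and at 5 to 753 in the knockout libraries (red), while genes of the other 3 clusters have values in both groups.

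Imprinted genes, which are read from the copy of 1 parent only, parted in their calls by the parent of origin. This division was also made after the values were seen. Of 15 genes read from the paternal copy, 10 fell and 2 rose (6 to 7 falling with any 1 library left out), and of 9 read from the maternal copy, 8 rose and 1 fell (2 to 4 rising). Peg3, a paternally read zinc finger gene, was at 3516 and 3575 in the floxed and at 0 in both knockout libraries, at least 1227-fold lower. Kcnq1ot1, a paternally read antisense transcript, fell from 2465 and 2248 to 20 and 15. It overlaps Kcnq1, and reads of the pair may be mixed. Of the maternally read genes, Igf2r, the receptor that clears IGF2, rose from 481 and 510 to 1993 and 2256, and Phlda2, a growth inhibitor silenced on the copy that expresses Kcnq1ot1, from 0 in both floxed libraries to 42 and 56, at least 15.9-fold. Mest, paternally read, rose from 37 and 35 to 139 and 118. Grb10, counted as maternally read, fell from 3893 and 3824 to 2359 and 2483. Igf2r and Grb10 were the only 2 of the 9 maternally read genes with a mean of at least 100, and they moved apart. The 9 genes summed to 4398 and 4353 in the floxed and 4541 and 4914 in the knockout libraries. Mest and Grb10 were not called without either floxed library.

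The log2 fold changes were not centred alike on every chromosome. Over genes with a mean of at least 50, the median was 0.69 on chromosome 12, where 91.5% of 375 genes were positive, and -0.46 on chromosome 9, where 16.6% of 586 genes were positive. Chromosomes 16 and 18 had medians of 0.35 and 0.26, and chromosomes 10, 14 and 15 medians of -0.38, -0.32 and -0.30. Between the 2 libraries of a group the same medians ran from -0.03 to 0.03. On chromosome 4 the 548 genes before 140 Mb had a median of 0.28 and the 118 genes beyond it a median of -0.57, a border chosen after the values were seen. Outside the autosomes, the Y-linked genes Uty (1084 and 1031), Ddx3y (1522 and 1592) and Eif2s3y (1343 and 1478) of the floxed libraries were at 0 in both knockout libraries. Over the 312 genes of chromosome X with a mean of at least 50, the median was -0.43, and 12.8% were positive. The part of chromosome copy number in any gene's change was not tested. With every gene's change taken relative to its chromosome's median, 7625 genes were called and 6413 of the 8686 calls remained in the same direction. On chromosome 4 the median of the whole chromosome, 0.20, was used, which moved genes beyond 140 Mb, such as Errfi1, further down. Among the genes named above, Aqp1, Csf1r, Pdgfra, Eef1a1 and Il17rd were no longer called after this shift. Pdgfra also lost its call in a fit with the replicate number as a block.

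**Figure D5:**
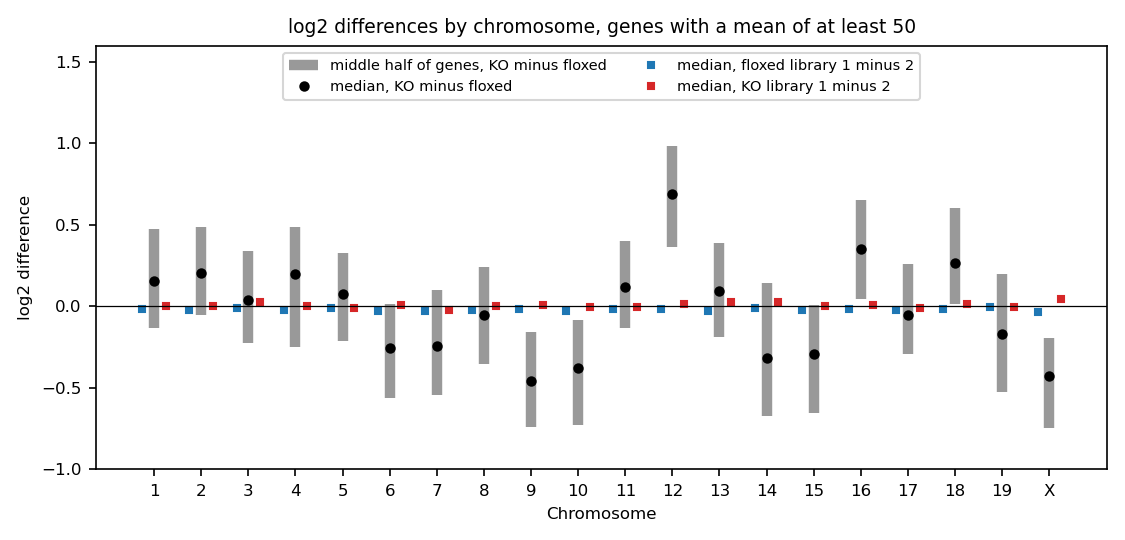
Black points give the median log2 difference (knockout minus floxed) of genes with a mean of at least 50 on each chromosome, and grey bars run from the lower to the upper quartile. The small squares give the median difference between the 2 libraries of a group, and they lie near 0 on every chromosome, while the black points run from -0.46 on chromosome 9 to 0.69 on chromosome 12.

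Some of the highest fold changes belonged to genes not described above. Mal, a protein of apical membrane transport, stood at 5 and 0 against 3812 and 3539, and its relative Mal2 at 0 against 332 and 356. Wfdc2, a secreted protease inhibitor of epithelia, went from 0 in both floxed libraries to 452 and 490, at least 153-fold, and Fxyd2, a regulator of the sodium pump in the kidney, from 0 to 333 and 328, at least 107-fold. Tfap2b, a transcription factor of the distal nephron, went from 0 to 207 and 213, at least 68.2-fold. Gas7 stood at 3 and 1 against 1119 and 1128 and Ppp2r2c, a phosphatase subunit, at 0 against 533 and 530. At the other end, Lrrk2, a kinase, stood at 1247 and 1315 against 0 and 1, and Cacna2d1, a calcium channel subunit, at 943 and 924 against 5 and 2. These genes were taken from called genes whose groups did not overlap, so a gap between the groups comes with the choice. Mal was not called without either knockout library, and Lrrk2 and Cacna2d1 without either floxed library.

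By absolute value, the largest gains after Ncl included those of Sema3c and Krt18, given above, and of Ahnak, a large scaffold protein (24872 and 25135 against 45796 and 48982), Hsp90aa1, a chaperone (10674 and 11790 against 25582 and 22472), and Ctnna1, the catenin that joins cadherins to actin (9020 and 9314 against 19006 and 19629). The largest falls include Akap12, a scaffold of kinase A (20315 and 22113 against 6241 and 6272), and Nedd4, a ubiquitin ligase (30133 and 29782 against 13245 and 13161). Hsp90aa1 has close copies, which leaves its value less certain. Ahnak and Hsp90aa1 lost their calls without either floxed library, and Hsp90aa1 also without knockout library 1.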

How the data were processed

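RNA was isolated with a column kit, treated with DNase and made into stranded total RNA libraries, per the labels' protocols. Per the submitters' processing notes, the tools include DESeq2 1.14.1, STAR 2.5.3a, Subread with featureCounts 1.6.0, and FastQC, and the genome is GRCm38 (mm10). The notes used here assign them no step. Strand use and multi-mapped reads are not given in the sources used here. What the authors deposited is a whole-number score that looks, from the values alone, like gene read counts divided by a factor per library and rounded. A count test was therefore not used. The 18288 genes of the table each reach at least 5 in some library. All were fitted in limma 3.58.1 (R 4.3.3) on log2(value + 1), with group means and a trended empirical Bayes prior, two-sided, and Benjamini-Hochberg adjustment over the table at 0.05. Positions come from GENCODE M21 (GRCm38), which matched 18257 genes, and autosomal genes with a mean of at least 1 are reported. The floor for a group at 0 is 3 reads per library. It covers counting error only.

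Members and the 63 gene lists were chosen with earlier results of these data known. Genes were named by a rule: Fermt2, the 15 highest and 15 lowest called fold changes with a mean of at least 50 in the higher group, the 8 largest called differences in each direction, up to 5 called members per list, and markers and Hox genes by level. The 15 highest and 15 lowest were taken only from genes whose groups did not overlap. Further list members were named after their values were seen. A few genes that count in the lists are not reported here and are left out of the figures. On simulated data with 18268 genes, 24%, 76%, 96% and 98% of 50 genes changed 1.5-, 2-, 4- and 8-fold were called, with 0 false calls. Only these genes were changed there, against 49.0% of genes called in the real data, and noise was drawn separately for each library. Neither the shares nor the 0 false calls therefore carry over to the 8686 calls. Alternatives covered the pseudocount, the filter, 3 rescalings, the trend, each library left out and a replicate block.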

Additional observations from a re-analysis of the deposited data

How the results depend on the processing

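The main count was 8686 called genes (4399 higher and 4287 lower). It lay between 6730 (no trend in the prior) and 9233 (rescaled by the median ratio) under other pseudocounts, filters and scalings, and at 7625 after a shift by the chromosome median, an alternative chosen after seeing the data. With 1 library left out the count ran from 2038 to 3694, with 1135 to 1726 higher and 874 to 1968 lower, and fewer samples leave 1 residual degree of freedom. The replicate numbers share only a number: the deviations of same-numbered libraries had a correlation of -0.095, and a fit with the replicate block called 7229 genes. Of the 361 called genes named by the rule or in the text, 348 were still called with the replicate block, 343 without the trend, 338 after the chromosome shift and 204 to 251 with 1 library left out. None of these changed direction. Direction changed for 5 genes that were not called: with 1 library left out, Fermt3 ran from -0.35 to 0.58, Grhl2 from -0.45 to 0.25 and Cdh2 from -0.022 to 0.035 on the log2 scale, and after the chromosome shift Tln1 was at -0.088, Pax8 at -0.11, Cdh2 at -0.26 and Grhl2 at 0.19, and Cdh2 was at -0.0002 when rescaled without genes over 1%, where the cause was not tested beyond the shift itself. After that shift the ribosomal proteins counted 13 higher and 4 lower, against 8 and 11. Values of a few reads limit low genes.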
